A study of Mus musculus with 30 samples.

Results

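The Wnt ligands, their receptors and their secreted antagonists were followed across the epithelial and fibroblast cells of mouse lung organoids. The members were chosen by gene symbol and comprise 52 of the 55487 genes counted. They are 19 Wnt ligands, 12 receptors (the Frizzled family with Lrp5 and Lrp6), 10 antagonists (Sfrp and Dkk genes, Wif1 and Notum), 7 genes of the R-spondin axis (Rspo1 to Rspo4 and Lgr4 to Lgr6) and 4 intracellular targets and feedback genes (Axin2, Lef1, Tcf7 and Nkd1).

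Wnt proteins are lipid-modified ligands that act over short distances. In the canonical branch, a Wnt bound to a Frizzled receptor and to Lrp5 or Lrp6 stops the degradation of β-catenin, which then enters the nucleus and activates genes with the factors Lef1 and Tcf7. Axin2 and Nkd1 are induced by this signal and damp it. R-spondins strengthen the signal through Lgr receptors by keeping Frizzled proteins on the cell surface. Sfrp, Wif1, Notum and some Dkk proteins oppose the signal outside the cell. In the lung, Wnt ligands from fibroblasts help to maintain alveolar type II progenitors, and Wnt5a is mostly known for signaling without β-catenin.

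Each organoid culture held 300000 Epcam+ lung cells of wild type adult C57BL/6J mice and as many CCL206 cells, a mouse lung fibroblast line whose division had been stopped with mitomycin C. Cells of each of 4 mice were cultured with vehicle, EC, IPFc or TGF-β for 72 h, and each culture was then separated with Epcam microbeads into an Epcam+ fraction (epithelial libraries) and an Epcam- fraction (fibroblast libraries) for bulk RNA sequencing. EC is a cocktail of TNF-α, IL-8, IL-6 and IL-1β modelled on exacerbations of chronic obstructive pulmonary disease. The paper states that for mouse cells it held KC in place of IL-8. IPFc, made after the factors of idiopathic pulmonary fibrosis, combined TGF-β, TNFα, TSLP, IL-33, IL-13, IL-8, IL-4, IL-1β and CCL2, and TGF-β alone was given at 2 ng/ml. The 30 libraries comprised 4 epithelial libraries each of vehicle, EC and IPFc, 3 epithelial libraries of TGF-β, 3 fibroblast libraries of vehicle, and 4 fibroblast libraries each of EC, IPFc and TGF-β. The epithelial TGF-β culture of mouse 1 and the fibroblast vehicle culture of mouse 2 were not analysed here. Replicates are cultures of the 4 mice, but every fibroblast library comes from the same cell line, and the other mesenchymal cells of the lung are not modelled by it. The libraries held 5113828 to 20317181 counted reads, and levels are given as CPM, the reads of a gene scaled to a common library total.

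With vehicle the fractions matched their labels by the level of their markers, but each also held markers of the other. The summed level of 22 epithelial markers was 11720 to 34430 CPM in epithelial libraries and 291 to 16510 CPM in fibroblast libraries. Immune and endothelial marker lists summed to at most 23.5 and 12.4 CPM in any library. The 12 markers of resident lung mesenchyme summed to 619 to 946 CPM in epithelial and 232 to 792 CPM in fibroblast libraries. Only 3 to 5 of these 12 genes reached a mean of 1 CPM in the epithelial groups and 5 or 6 in the fibroblast groups. Tcf21 had no read in any group, so these sums rest on few genes and are no measure of resident mesenchyme. The 22 fibroblast markers summed to 10500 to 43900 CPM in fibroblast libraries and 969 to 15960 CPM in epithelial libraries, with Thy1 at 0 in the vehicle, EC and TGF-β fibroblast groups. In epithelial TGF-β libraries the fibroblast markers (14130 to 15960 CPM) reached the level of the epithelial markers (11720 to 14950 CPM). In fibroblast EC libraries the epithelial markers (10950 to 16510 CPM) overlapped with the fibroblast markers (10500 to 17890 CPM). The share of the other fraction was estimated as the median ratio of its markers' CPM to their CPM in the partner library. Partner libraries were themselves mixed, so this ratio is no exact fraction of the RNA and moves with either library. For fibroblast RNA it was 5.92% ± 2.41 (SD, n = 4) in epithelial vehicle, 11.4% ± 4.25 (n = 4) in EC, 11.1% ± 4.82 (n = 4) in IPFc and 29.9% ± 2.95 (n = 3) in TGF-β libraries. For epithelial RNA it was 22.4% ± 6.64 (n = 3) in fibroblast vehicle, 45.6% ± 9.21 (n = 4) in EC, 20.03% ± 8.44 (n = 4) in IPFc and 2.24% ± 1.29 (n = 4) in TGF-β libraries. These shares moved with treatment, so the level that the partner's share would bring is given beside the main results it touches, with the call after subtraction of this share where the gene still passed the filter. The subtraction was chosen in part after seeing the data. A second estimate from Xist and 4 Y-linked genes, chosen after seeing the data, gave 7.41%, 19.2%, 9.96% and 32.9% for epithelial vehicle, EC, IPFc and TGF-β libraries and 20.9%, 36.6%, 16.9% and 1.27% for the fibroblast groups. It differed by over 1.5 times from the first for epithelial EC, where single libraries ran from 5.28% to 45.8%, and for fibroblast TGF-β, and all levels and subtractions use the first estimate. The second estimate counts Xist as fibroblast RNA and the Y-linked genes as epithelial RNA, which assumes male mice and a female fibroblast line. The labels give no sex, and the paper lists male and female mice, so this assumption was not tested. In bulk libraries fewer cells of a type and less RNA per cell cannot be told apart. Marker levels also cannot tell RNA carried over between the fractions from expression of these genes by the sorted cells, which was not tested.

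Promoter sequence was available for 34 members in the RefSeq annotation of GRCm38.p6 (41 start sites, each from 250 bases before to 50 bases after the start). The TCF/LEF core CTTTGA, or TCAAAG on the other strand, the letters through which β-catenin partners bind, occurred in 5 of these 41 windows against 16% of 32851 mouse promoters. The SMAD letters CAGAC occurred in 51.2% of the member windows and 49.6% of all, and the AP-1 letters TGACTCA in 2.44% and 5.2%. Shown here, 5′ to 3′ on the strand of the gene, are windows of 4 members that were higher in epithelial TGF-β libraries, because 3 of them hold the TCF/LEF core (in capitals) while the fourth, Lgr6, does not. They are Wnt11 (chr7:98834862-98835161, plus strand), a start inside Lef1 (chr3:131156044-131156343, plus strand), Fzd1 (chr5:4758167-4758466, minus strand) and Lgr6 (chr1:135105227-135105526, minus strand). The other windows of Lef1 and Wnt11 do not hold the core. Neither do those of Fzd7, Dkk2 and Wnt9a, which were also higher in epithelial TGF-β libraries. A match describes letters in the window and is no evidence of binding.
Wnt11: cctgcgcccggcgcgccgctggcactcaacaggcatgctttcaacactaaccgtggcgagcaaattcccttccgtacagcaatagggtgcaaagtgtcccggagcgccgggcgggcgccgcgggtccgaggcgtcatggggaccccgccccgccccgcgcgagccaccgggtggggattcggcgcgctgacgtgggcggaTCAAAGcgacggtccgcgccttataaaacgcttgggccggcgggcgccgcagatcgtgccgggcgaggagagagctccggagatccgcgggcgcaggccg
Lef1: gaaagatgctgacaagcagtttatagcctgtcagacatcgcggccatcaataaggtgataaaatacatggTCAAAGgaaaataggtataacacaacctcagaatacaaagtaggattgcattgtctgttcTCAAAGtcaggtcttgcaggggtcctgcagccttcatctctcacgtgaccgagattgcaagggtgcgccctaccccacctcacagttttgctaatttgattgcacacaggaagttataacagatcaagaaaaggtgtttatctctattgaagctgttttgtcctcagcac
Fzd1: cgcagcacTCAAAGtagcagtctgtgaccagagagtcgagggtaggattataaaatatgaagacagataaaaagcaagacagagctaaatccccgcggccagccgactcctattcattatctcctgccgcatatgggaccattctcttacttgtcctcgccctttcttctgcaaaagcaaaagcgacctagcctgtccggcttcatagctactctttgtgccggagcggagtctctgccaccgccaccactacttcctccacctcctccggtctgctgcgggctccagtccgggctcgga
Lgr6: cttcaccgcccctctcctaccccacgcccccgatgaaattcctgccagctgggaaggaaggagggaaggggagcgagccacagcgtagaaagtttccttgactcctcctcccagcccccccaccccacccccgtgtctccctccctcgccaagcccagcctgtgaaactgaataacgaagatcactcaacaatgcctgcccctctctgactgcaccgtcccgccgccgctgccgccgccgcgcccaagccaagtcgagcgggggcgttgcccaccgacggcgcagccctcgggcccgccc

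Epithelial and fibroblast cells expressed different Wnt ligands. Of the 52 members, 39 had a mean raw count of at least 1 in epithelial libraries and 38 in fibroblast libraries, and 11 fell below this filter in both (among them Wnt1, Wnt2, Wnt3, Dkk1 and Sfrp2). Per kilobase of exon, Wnt7b (33.5 ± 2.6 CPM per kb, n = 4) and Wnt7a (21.0 ± 1.47) were the most abundant ligands of epithelial vehicle libraries, followed by Wnt4 (3.95 ± 0.809) and Wnt10a (2.84 ± 0.336), and the SDs of the last pair leave their order unsettled. In fibroblast vehicle libraries Wnt5a (8.49 ± 1.07 CPM per kb, n = 3) and Wnt6 (6.14 ± 1.62) led, and these levels overlapped within their spread with Wnt7b (5.04 ± 2.87), for which the epithelial share would bring 153% of the measured level. Across the 4 treatments, 14 of 39 members were higher in epithelial libraries (37.9% of all 18364 genes tested) and 20 were higher in fibroblast libraries (35.9% of all genes), by edgeR's quasi-likelihood test with Benjamini-Hochberg adjustment at 0.05, which is used throughout. The corresponding shares of the members were 35.9% and 51.3%.

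Among ligands, Wnt7b was higher in epithelial libraries by 3.24 ± 0.15 on the log2 scale (SE; adjusted p = 5.2e-17), Wnt4 by 3.09 ± 0.25 and Wnt7a by 2.84 ± 0.13. Wnt5a was higher in fibroblast libraries, with a log2 difference of -2.65 ± 0.11 (epithelial minus fibroblast, adjusted p = 7.0e-18), as was Wnt6 with -3.56 ± 0.19. The receptors were divided: Fzd6 (1.80 ± 0.09), Fzd5 (1.19 ± 0.09) and Fzd4 (1.05 ± 0.12) were epithelial, and Fzd2 (-1.66 ± 0.10), Fzd1 (-1.59 ± 0.07) and Fzd7 (-1.37 ± 0.07) fibroblast. The co-receptors Lrp5 and Lrp6 differed little, with differences of 0.49 ± 0.09 and -0.21 ± 0.08. Of 6 antagonists tested, 5 were higher in fibroblast libraries and Sfrp4, at 0.514 ± 0.347 CPM in epithelial vehicle libraries, was higher in epithelial libraries (2.03 ± 0.62). Antagonists and R-spondins that were fibroblast-high included Dkk2 (-3.98 ± 0.25), Rspo3 (-3.59 ± 0.22), Rspo2 (-3.55 ± 0.26), Dkk3 (-2.95 ± 0.13) and Sfrp1 (-2.45 ± 0.11). Lgr5, an R-spondin receptor that marks stem cells in several epithelia, was epithelial (3.32 ± 0.31, adjusted p = 1.5e-10). Lef1 was fibroblast-high (-3.36 ± 0.22), and Axin2 did not pass the test (0.03 ± 0.25, adjusted p = 0.918). The cross-fraction shares were not subtracted in this comparison.

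**Figure D1:**
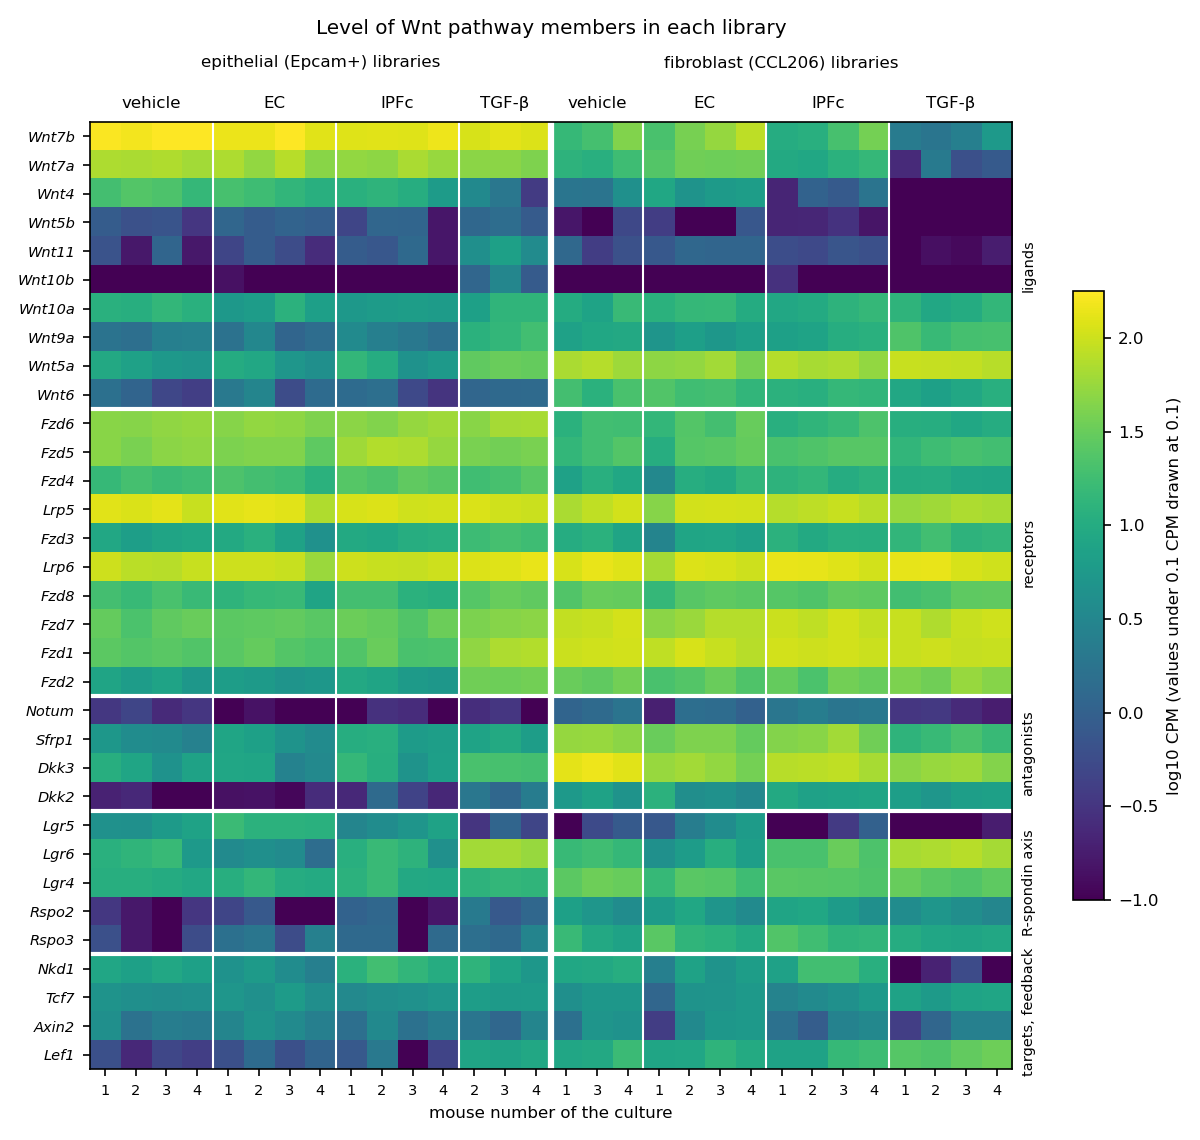
Level of the members that reached a mean of 1 CPM in at least 1 group, in each of the 30 libraries (columns, by fraction, treatment and mouse), as log10 CPM by colour. Rows are grouped by role and ordered within a role from epithelial-high to fibroblast-high. Wnt7b and Wnt7a are bright in epithelial libraries and fade in the fibroblast TGF-β libraries, where the estimated epithelial share is 2.24%. Lgr6 is bright in the TGF-β libraries of both fractions.

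The treatments were then compared with vehicle within each fraction. These comparisons share the vehicle libraries of a fraction. In epithelial libraries, EC raised 2 of 39 members (1.96% of all 18024 genes tested) and lowered 3 (2.44% of all genes), and IPFc raised 3 (2.57%) and lowered 3 (1.53%). TGF-β raised 17 of 39 (21% of all genes) and lowered 6 (20.1%). In fibroblast libraries, EC raised 4 of 38 members (4.28% of all 18048 genes tested) and lowered 3 (2.84%), and TGF-β raised 5 (6.39%) and lowered 11 (12.8%). IPFc raised 0 members (0.305% of all genes) and lowered 1 (0.144%) in fibroblast libraries, with 5 of 38 members at an unadjusted p under 0.05 (1174 of all 18048 genes) and 2 members called by DESeq2. The median log2 fold change of the members under TGF-β was 0.46 in epithelial libraries, where that of all genes was 0.03, and -0.08 in fibroblast libraries, where that of all genes was -0.02. With genes at 0 reads set to their limit, these medians were 0.53 and -0.08. Members that pass the filter only through one treatment, such as Wnt10b, are among those called, so these counts describe the list and are no support for a change of it as a whole. Of 58 calls, 20 were kept under each alternative, subtraction included, and 2 more (Dkk2 in epithelial and Wnt4 in fibroblast TGF-β libraries) under each alternative that gave a value, with none on subtraction. Another 12 were lost only when the partner's share was subtracted. The fit on subtracted counts had a larger spread between libraries, so a call lost there need not mean a smaller change.

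**Figure D2:**
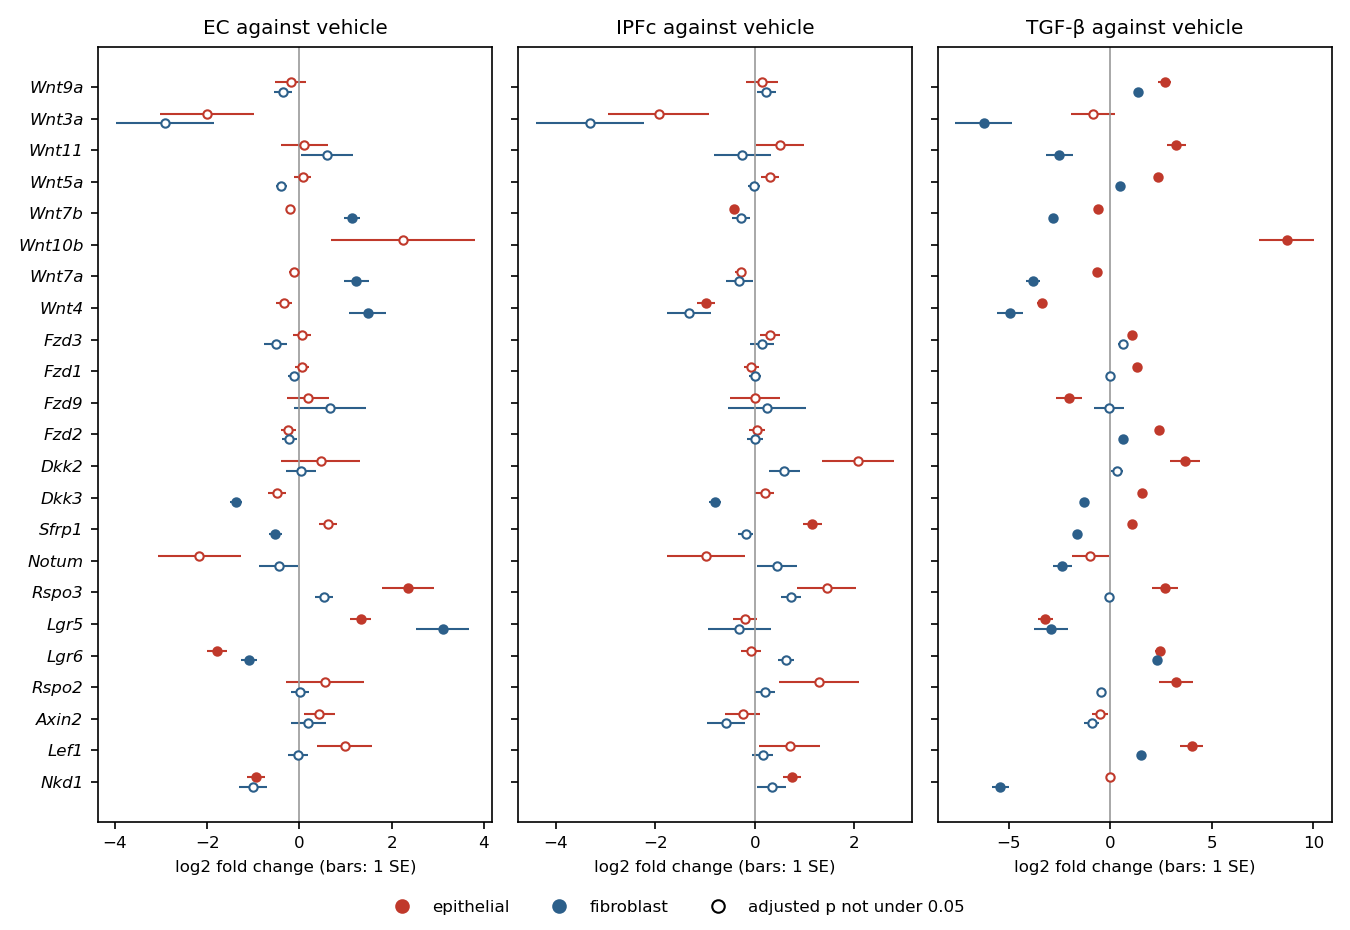
Log2 fold changes against vehicle (horizontal axis, bars 1 SE) of the 23 named members under EC, IPFc and TGF-β in epithelial (red) and fibroblast (blue) libraries, with open points where the adjusted p was not under 0.05. The IPFc value of Wnt10b, which had no read in either group, is not drawn. Under IPFc the filled points are few, while open points such as Wnt3a (-3.31 in fibroblast libraries) and Dkk2 (2.07 in epithelial libraries) lie away from 0 with wide bars. Under TGF-β Wnt11 and Dkk3 lie on opposite sides of 0 in the 2 fractions, both called.

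The ligand that fell most in epithelial cells was Wnt4, a signal known from kidney development. In epithelial vehicle libraries it measured 19.0, 24.2, 21.8 and 14.7 CPM (mice 1 to 4), under EC 19.9, 17.4, 13.8 and 11.1 CPM, under IPFc 11.4, 12.8, 10.6 and 6.06 CPM, and under TGF-β 3.51, 1.94 and 0.363 CPM (mice 2 to 4). Each IPFc and TGF-β library lay below each vehicle library, and EC overlapped with vehicle. The log2 fold change of Wnt4 was -0.99 ± 0.18 under IPFc (n = 4 mouse pairs, adjusted p = 0.00256) and -3.35 ± 0.25 under TGF-β (n = 3, adjusted p = 1.6e-09), and -3.00 under TGF-β with the fibroblast share subtracted. The IPFc call of Wnt4 was lost without the pairing by mouse (adjusted p = 0.119) and with the share subtracted (adjusted p = 0.114). In fibroblast libraries the epithelial share would bring at least the measured level of Wnt4 in vehicle (151% of it), EC (107%) and IPFc (194%), where its log2 fold change was 1.48 ± 0.40 under EC and -4.92 ± 0.64 under TGF-β. These fibroblast changes of Wnt4 ran in the direction of the epithelial share and gave no value on its subtraction.

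Wnt7b, a ligand of the developing lung epithelium, and its close relative Wnt7a fell less. Wnt7b measured 169, 156, 188 and 176 CPM in epithelial vehicle libraries, 122, 126, 123 and 147 CPM under IPFc and 112, 132 and 121 CPM under TGF-β, so that the treated libraries lay below those of vehicle. Its log2 fold change was -0.41 ± 0.09 under IPFc (adjusted p = 0.0102) and -0.62 ± 0.10 under TGF-β (adjusted p = 4.1e-05), and that of Wnt7a was -0.66 ± 0.12 under TGF-β (adjusted p = 0.00022). With the fibroblast share subtracted, both TGF-β changes shrank, to -0.18 for Wnt7b and -0.21 for Wnt7a (adjusted p = 0.255 and 0.256). The IPFc call of Wnt7b was also lost without the pairing (adjusted p = 0.0707) and without mouse 1, 2 or 3 (adjusted p = 0.0638 to 0.113), and on subtraction (-0.32, adjusted p = 0.24). In fibroblast libraries Wnt7b rose by 1.14 ± 0.18 under EC and changed by -2.83 ± 0.20 under TGF-β, and Wnt7a by 1.23 ± 0.27 and -3.79 ± 0.34. The level that the epithelial share would bring was 86.9% to 153% of their measured means in each of the 4 fibroblast groups, and none of these calls was kept once it was subtracted. The EC calls of Wnt4, Wnt7a and Wnt7b in fibroblasts were lost without mouse 3 (adjusted p = 0.273, 0.199 and 0.0677) without mouse 4 (0.113, 0.144 and 0.0516) and without the pairing (0.145, 0.0553 and 0.335), and those of Wnt4 and Wnt7a with the title suffix as covariate (0.181 and 0.112).

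Wnt11 and Wnt10b rose in epithelial cells under TGF-β from levels near 0. Wnt11, which acts mainly without β-catenin, measured 0.682, 0.160, 1.13 and 0.161 CPM in epithelial vehicle libraries and 4.20, 7.05 and 3.75 CPM under TGF-β, with no overlap. In fibroblast libraries it measured 1.26, 0.387 and 0.641 CPM with vehicle (mice 1, 3 and 4) and 0, 0.137, 0.123 and 0.180 CPM with TGF-β, again without overlap but in the other direction. The log2 fold change of Wnt11 was 3.26 ± 0.48 in epithelial libraries (n = 3, adjusted p = 1.2e-05) and -2.50 ± 0.68 in fibroblast libraries (n = 3, adjusted p = 0.0144), and the difference of 5.79 ± 0.82 between the fractions passed its own test (adjusted p = 4.5e-06). The fibroblast share would bring 0.889% of the epithelial TGF-β level of Wnt11, and the rise was 3.93 with this share subtracted. The fall in fibroblasts was lost without mouse 1 (-1.60, adjusted p = 0.149), without mouse 4 (-2.95, adjusted p = 0.062) and in the fit on the 2 treatments alone (adjusted p = 0.0719).

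Wnt10b, a canonical ligand, had no read in the 4 epithelial vehicle libraries or the 4 IPFc libraries, and 1.17, 3.08 and 0.846 CPM under TGF-β. Against the limit that 3 reads over the vehicle libraries allow (0.0501 CPM), it was at least 33.9-fold higher (adjusted p = 0.0002). DESeq2 did not call it (adjusted p = 0.19), and the fibroblast share would bring 0.702% of its level. Only the TGF-β libraries carried it past the filter, so that among the genes tested it had to differ.

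Wnt5a and Wnt9a rose in both fractions under TGF-β. Wnt5a measured 9.07, 7.21, 5.46 and 5.00 CPM in epithelial vehicle and 29.0, 31.9 and 30.6 CPM in epithelial TGF-β libraries. In fibroblast libraries it measured 68.1, 76.9 and 59.7 CPM with vehicle, 49.5, 52.5, 62.4 and 38.3 CPM with EC, and 94.8, 91.4, 89.9 and 79.6 CPM with TGF-β. The TGF-β libraries lay above the vehicle libraries in both fractions, by a log2 fold change of 2.35 ± 0.19 in epithelial (adjusted p = 4.6e-09) and 0.49 ± 0.12 in fibroblast libraries (adjusted p = 0.008). The fibroblast share would bring 85.1% of the Wnt5a level of epithelial TGF-β libraries, and with it subtracted the rise was 1.25 (adjusted p = 0.378). In fibroblasts the Wnt5a call was lost without mouse 4 (adjusted p = 0.0601) and with the epithelial share subtracted (0.17, adjusted p = 0.676). EC and IPFc values of Wnt5a did not pass the test against vehicle in either fraction.

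Wnt9a, a canonical ligand known from joint formation, measured 1.71, 1.52, 2.56 and 2.66 CPM in epithelial vehicle and 11.8, 14.0 and 18.5 CPM in epithelial TGF-β libraries. It measured 7.32, 8.51 and 9.10 CPM in fibroblast vehicle and 22.3, 15.5, 19.8 and 19.98 CPM in fibroblast TGF-β libraries, and neither pair of groups overlapped. The log2 fold changes were 2.69 ± 0.32 (adjusted p = 7.5e-07) and 1.39 ± 0.19 (adjusted p = 4.3e-05). Wnt9a kept both calls with the share subtracted (2.84 and 1.13), where the share would bring 37.3% of the epithelial and 1.76% of the fibroblast level under TGF-β.

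Wnt10a, Wnt6 and Wnt3a were the other ligands called. Wnt10a fell in epithelial libraries from 12.1 ± 1.43 CPM to 7.67 ± 3.03 CPM under EC (-0.65 ± 0.18, adjusted p = 0.0396) and to 6.03 ± 0.454 CPM under IPFc (-0.99 ± 0.18, adjusted p = 0.00221). The EC call of Wnt10a was lost without mouse 1, 2 or 4 (adjusted p = 0.0738 to 0.314), without the pairing (0.295) and with the share subtracted (0.105), and the IPFc call was kept in each of these. Wnt6 fell in fibroblasts under TGF-β (-0.75 ± 0.22, adjusted p = 0.022), a call lost without mouse 1, 2 or 4 (adjusted p = 0.0507 to 0.0845). Wnt3a, with 13 reads over the 3 fibroblast vehicle libraries and 0 reads over the 4 TGF-β libraries, was at least 6.29-fold lower there (adjusted p = 0.00561), while DESeq2 gave no adjusted p for it.

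**Figure D3:**
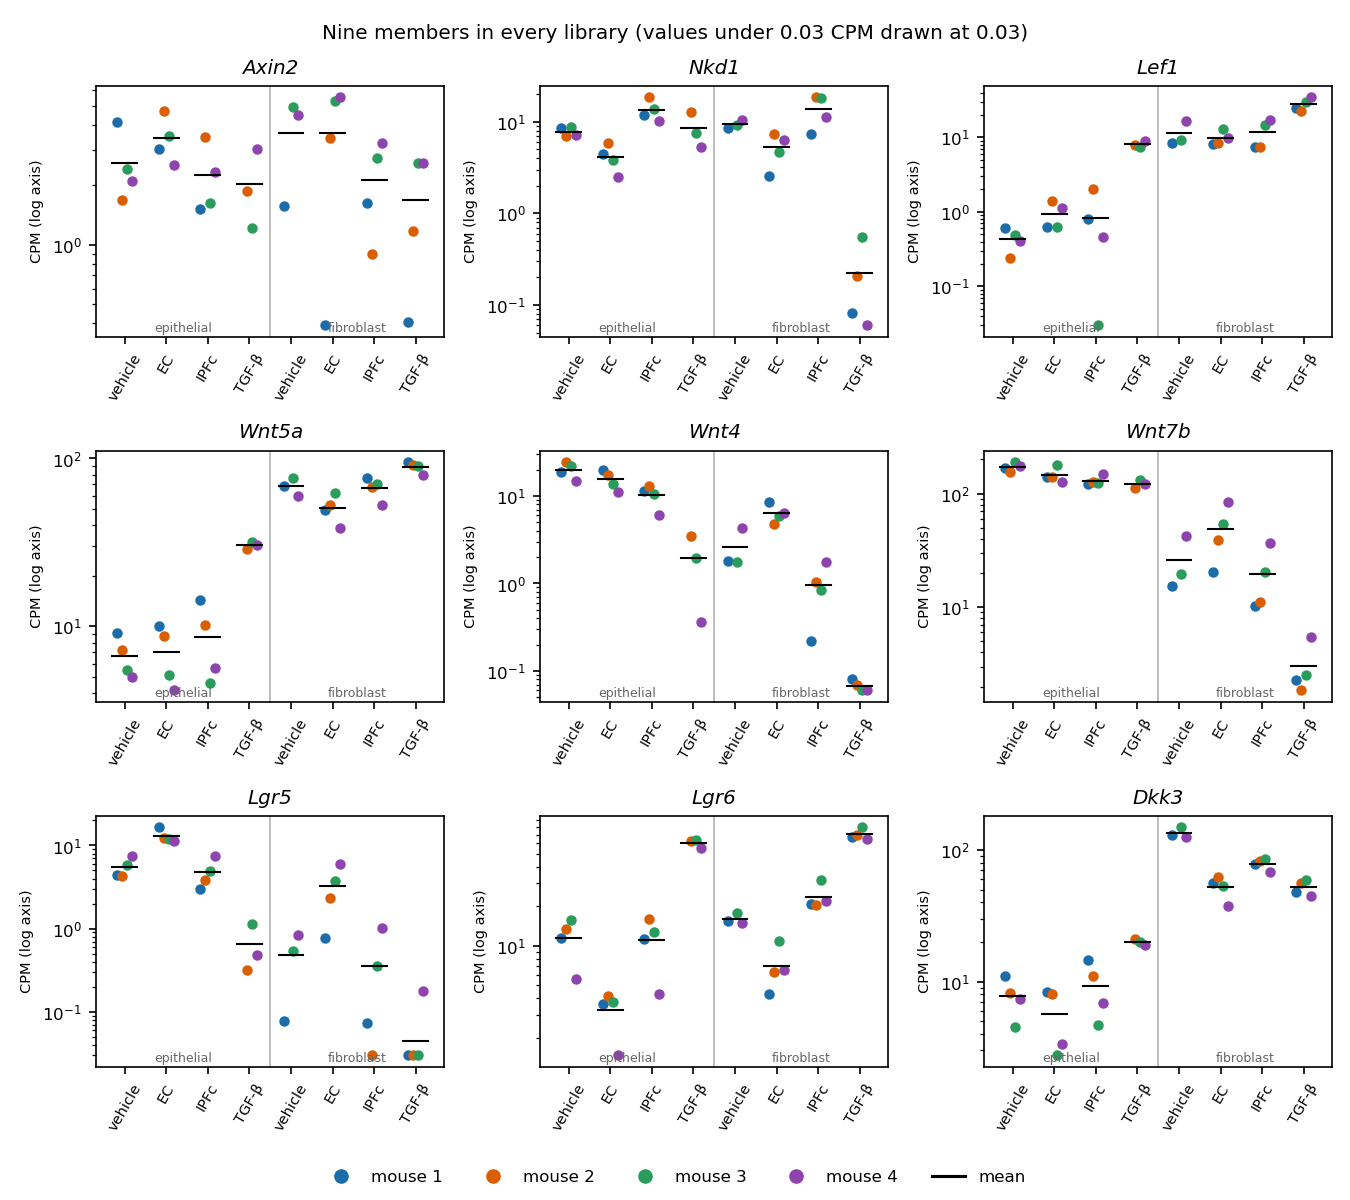
CPM (log axis) of 9 members in every library, by fraction and treatment, with points coloured by mouse and a line at the group mean. Axin2 overlaps between the groups of each fraction, Nkd1 falls below 1 CPM only in fibroblast TGF-β libraries, and Lgr5 and Lgr6 move in opposite directions in epithelial EC and TGF-β libraries.

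Of 12 receptors, 6 rose (50%, against 21% of all genes) and 2 fell (16.7%, against 20.1%) in epithelial libraries under TGF-β. Fzd2, a Frizzled receptor that also binds Wnt5a, rose most, from 7.91, 6.17, 7.58 and 5.24 CPM with vehicle to 35.2, 34.5 and 36.1 CPM with TGF-β, a log2 fold change of 2.38 ± 0.16 (adjusted p = 3.1e-10). Fzd1 rose from 27.1, 24.0, 26.3 and 23.5 CPM to 51.2, 71.2 and 76.1 CPM (1.30 ± 0.16, adjusted p = 1.1e-06), and Fzd3 by 1.08 ± 0.21 (adjusted p = 0.00034). For each of the 3 receptors the TGF-β libraries lay above the vehicle libraries. The fibroblast share would bring 38.5% of the Fzd2, 43.4% of the Fzd1 and 25.2% of the Fzd3 level, and with it subtracted the rises were 2.58, 1.18 and 1.19, all still called. Fzd7, Fzd8 and Lrp6 rose by 0.46 to 0.60, and of these Fzd7 was at -0.00 with the share subtracted and Fzd8 was lost without mouse 4 (adjusted p = 0.0595).

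Fzd9 fell in epithelial TGF-β libraries by 2.01 ± 0.64 on the log2 scale from levels near 1 CPM (adjusted p = 0.0153), which was lost without mouse 2 or 3 (adjusted p = 0.0839 and 0.0886) and in the fit on the 2 treatments alone (0.0916). Fzd5, an epithelial receptor, rose under IPFc, from 46.9, 39.2, 48.1 and 51.1 CPM to 61.7, 74.4, 70.7 and 54.6 CPM (0.49 ± 0.12, adjusted p = 0.0243), and fell under TGF-β (-0.38 ± 0.14, adjusted p = 0.0332). The IPFc call of Fzd5 was lost without mouse 1, 2 or 3 (adjusted p = 0.103 to 0.295), without the pairing (0.0641) and on subtraction (0.128), and the TGF-β call without mouse 1 or 3 (0.0633 and 0.202), with the title suffix as covariate (0.0786) and on subtraction (0.619). In fibroblast libraries Fzd2 alone among receptors was called, rising by 0.65 ± 0.16 under TGF-β (adjusted p = 0.00751), from 32.2 ± 3.83 CPM to 44.6 ± 9.19 CPM. It was lost there without mouse 3 (0.44, adjusted p = 0.167), without the pairing (0.062), with the title suffix as covariate (0.44, adjusted p = 0.069) and with the share subtracted (0.34, adjusted p = 0.526).

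Dkk3, a divergent member of the Dickkopf family, fell in fibroblast libraries under each treatment. Per kilobase it was the most abundant gene of the antagonist list in fibroblasts (19.7 ± 1.72 CPM per kb with vehicle). Whether Dkk3 opposes Wnt signaling in these cells was not tested. It measured 131, 148 and 126 CPM with vehicle, 56.1, 62.4, 53.2 and 37.2 CPM with EC, 78.8, 82.6, 85.6 and 67.5 CPM with IPFc and 48.1, 55.6, 59.4 and 45.0 CPM with TGF-β. No treated library reached a vehicle library. The log2 fold change was -1.37 ± 0.13 under EC (adjusted p = 1.5e-05), -0.80 ± 0.13 under IPFc (adjusted p = 0.00671) and -1.31 ± 0.13 under TGF-β (adjusted p = 7.1e-07). The EC and TGF-β falls of Dkk3 were kept with the epithelial share subtracted (-0.94 and -1.65), and the IPFc fall was not (-0.82, adjusted p = 0.112), nor without mouse 3 or 4 (0.14 and 0.237) or without the pairing (0.0947). In epithelial libraries Dkk3 rose under TGF-β from 7.79 ± 2.68 to 19.9 ± 1.02 CPM (1.56 ± 0.21, adjusted p = 3.2e-06), where the fibroblast share would bring 79.4% of the level and the call was lost on subtraction (3.56, adjusted p = 0.063).

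Sfrp1, a secreted decoy for Wnt proteins, moved in opposite directions in the fractions. In fibroblast libraries it measured 55.2, 56.2 and 48.4 CPM with vehicle and 13.0, 15.6, 21.0 and 15.7 CPM with TGF-β (-1.62 ± 0.15, adjusted p = 4.2e-07). In epithelial libraries it measured 5.32, 3.85, 3.64 and 2.66 CPM with vehicle, 10.4, 11.1, 6.14 and 6.68 CPM with IPFc, and 7.76, 9.32 and 6.53 CPM with TGF-β. The epithelial IPFc and TGF-β libraries lay above those of vehicle, by log2 fold changes of 1.15 ± 0.19 (adjusted p = 0.00082) and 1.09 ± 0.21 (adjusted p = 0.00027). The difference between the fractions was called for each treatment, at 1.13 ± 0.23 for EC, 1.34 ± 0.23 for IPFc and 2.73 ± 0.24 for TGF-β. With the shares subtracted the EC and IPFc differences of Sfrp1 were lost (adjusted p = 0.349 and 0.104), and so they were without mouse 4 (0.0716 and 0.197), while the IPFc difference was also lost without mouse 1 or 2 (0.05 and 0.0984). The fibroblast share would bring 58.5% of the IPFc and 65.5% of the TGF-β level of Sfrp1 in epithelial libraries. On subtraction the IPFc call was lost (2.67, adjusted p = 0.117) and the TGF-β call was kept (2.41, adjusted p = 0.0243). In fibroblasts Sfrp1 also fell under EC (-0.52 ± 0.15, adjusted p = 0.0465), and that call was lost without any 1 mouse (adjusted p = 0.0657 to 0.28), without the pairing (0.215), in the fit on the 2 treatments alone (0.0545), with DESeq2-type size factors (0.0636) and on subtraction (-0.12, adjusted p = 0.941).

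Dkk2 and Notum completed the antagonist calls. Dkk2 rose in epithelial libraries under TGF-β (3.68 ± 0.75, adjusted p = 0.00047) to 1.97, 1.22 and 2.30 CPM, and the fibroblast share would bring 103% of that level. Subtraction gave no value for Dkk2. Notum, an enzyme that removes the lipid of Wnt proteins, measured 1.10, 1.32 and 1.79 CPM in fibroblast vehicle libraries and 0.325, 0.343, 0.245 and 0.180 CPM with TGF-β, with no overlap. Its fall of 2.36 ± 0.48 on the log2 scale (adjusted p = 0.00168) was kept on subtraction (-2.55) and lost without mouse 4 (-2.01, adjusted p = 0.0595).

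Lgr5 and Lgr6 changed in opposite directions in epithelial libraries under both EC and TGF-β. Lgr5 measured 4.43, 4.33, 5.86 and 7.42 CPM in epithelial vehicle libraries, 16.5, 12.3, 12.1 and 11.4 CPM with EC, 3.03, 3.85, 4.91 and 7.53 CPM with IPFc, and 0.319, 1.13 and 0.483 CPM with TGF-β. The EC libraries lay above and the TGF-β libraries below each vehicle library, and IPFc overlapped with vehicle. The log2 fold change of Lgr5 was 1.33 ± 0.23 under EC (n = 4, adjusted p = 0.00112) and -3.21 ± 0.37 under TGF-β (n = 3, adjusted p = 5.5e-07), and both calls were kept under each alternative, at 1.40 and -2.79 with the share subtracted. In fibroblast libraries Lgr5 rose under EC by 3.11 ± 0.58 (adjusted p = 0.00394), from 0.0787, 0.542 and 0.833 CPM to 0.782, 2.37, 3.77 and 6.02 CPM, and the epithelial share would bring 182% of that level. That call was lost without mouse 3 (3.33, adjusted p = 0.0765), without mouse 4 (3.18, adjusted p = 0.132) and without the pairing (2.79, adjusted p = 0.113). Under TGF-β, Lgr5 had 3 reads over the 4 fibroblast libraries against 21 over the 3 vehicle libraries, a ratio of 0.0984 (exact 95% counting interval 0.0188 to 0.33, for counting error only), and that call (adjusted p = 0.0214) was lost without mouse 3 or 4 (0.213 and 0.0765), without the pairing (0.123), in the fit on the 2 treatments alone (0.12) and with the title suffix as covariate (0.0816).

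Lgr6, an R-spondin receptor of airway smooth muscle and skin, measured 11.5, 13.4, 15.6 and 5.56 CPM in epithelial vehicle libraries, 3.60, 4.15, 3.72 and 1.47 CPM with EC, and 62.9, 64.0 and 55.5 CPM with TGF-β. In fibroblast libraries it measured 15.5, 17.7 and 14.8 CPM with vehicle, 4.30, 6.31, 10.9 and 6.56 CPM with EC, 20.8, 20.5, 31.7 and 21.9 CPM with IPFc, and 67.6, 69.8, 79.5 and 64.4 CPM with TGF-β. In both fractions the EC libraries lay below and the TGF-β libraries above each vehicle library. The log2 fold change of Lgr6 under EC was -1.79 ± 0.22 in epithelial (adjusted p = 2.3e-05) and -1.09 ± 0.17 in fibroblast libraries (adjusted p = 0.00104). Under TGF-β it was 2.43 ± 0.21 (adjusted p = 7.8e-09) and 2.29 ± 0.16 (adjusted p = 2e-08). With the share subtracted, the TGF-β rises of Lgr6 were 2.46 and 2.15 and the epithelial EC fall -1.96, all still called, while the fibroblast EC fall was not (-0.74, adjusted p = 0.476). In epithelial TGF-β libraries, 34.8% of the level would come with the fibroblast share.

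The R-spondins themselves were fibroblast genes with few changes there. Rspo3 measured 16.1, 9.13 and 7.37 CPM in fibroblast vehicle libraries and passed the test against vehicle under no treatment in them. Its epithelial level was 0.614, 0.160, 0.0492 and 0.564 CPM with vehicle, 1.59, 1.89, 0.573 and 2.60 CPM with EC and 1.54, 1.30 and 2.90 CPM with TGF-β (2.36 ± 0.57 and 2.70 ± 0.62, adjusted p = 0.0166 and 0.00142). For Rspo3 in epithelial libraries the fibroblast share would bring 113% of the EC and 132% of the TGF-β level, and neither call was kept on subtraction (2.86 and -2.24, adjusted p = 0.568 and 0.466). The EC call was also lost without mouse 2 or 4 (adjusted p = 0.107 and 0.0857) and without the pairing (0.16). Rspo2 rose in epithelial libraries under TGF-β by 3.26 ± 0.84 (adjusted p = 0.00371), and the share would bring 87.3% of its level there (2.63, adjusted p = 0.355 on subtraction).

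**Figure D4:**
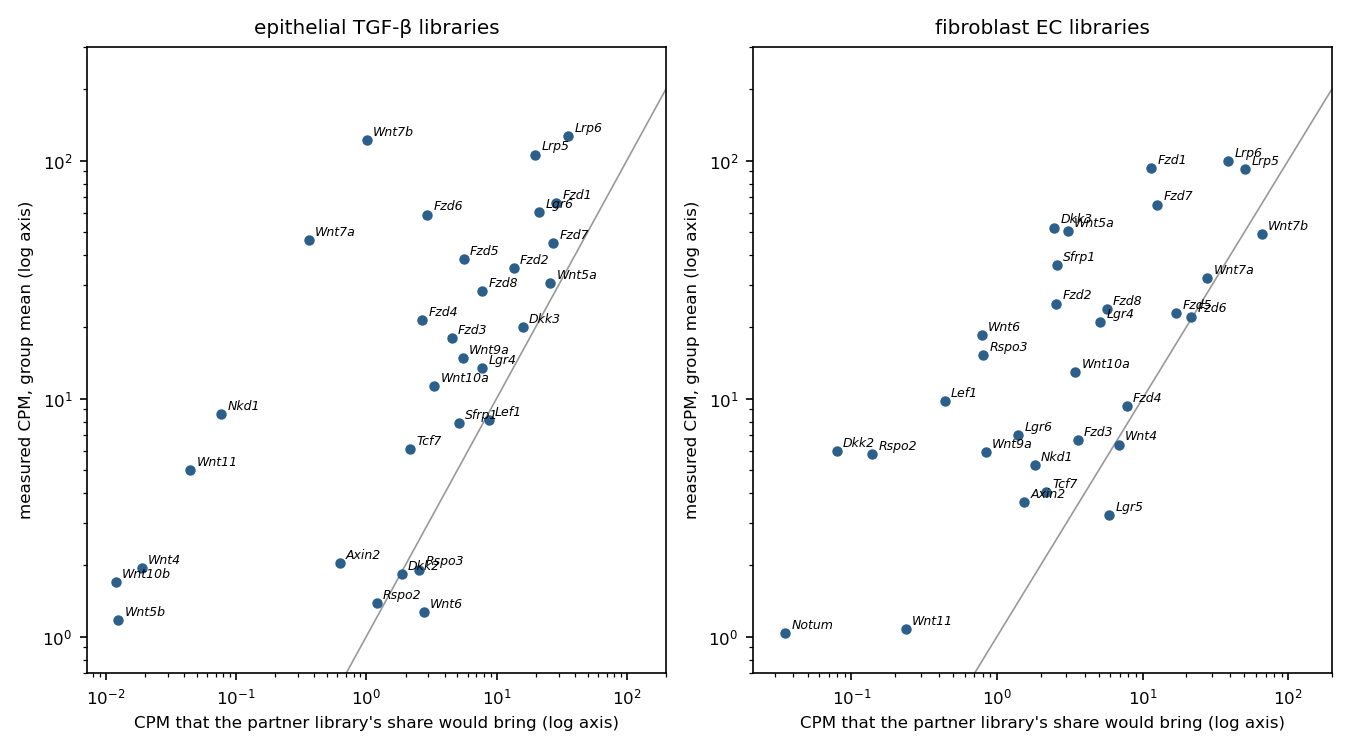
Mean measured CPM (vertical axis) against the CPM that RNA of the partner library would bring at its estimated share (horizontal axis), both log axes, for members of at least 1 CPM in epithelial TGF-β libraries (left) and fibroblast EC libraries (right). The line marks equal values: Wnt5a, Lef1, Dkk2, Rspo2 and Rspo3 lie near it on the left and Wnt4, Wnt7a, Wnt7b and Lgr5 near or below it on the right, while Wnt11, Wnt10b and Nkd1 lie far above it on the left.

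Among targets and feedback genes, Axin2, the usual readout of canonical Wnt signaling, did not pass the test under any treatment. It measured 4.16, 1.68, 2.41 and 2.10 CPM in epithelial vehicle libraries, 3.05, 4.73, 3.55 and 2.51 CPM with EC, 1.52, 3.50, 1.62 and 2.33 CPM with IPFc, and 1.86, 1.22 and 3.02 CPM with TGF-β. In fibroblast libraries it measured 1.57, 4.95 and 4.49 CPM with vehicle, 0.391, 3.44, 5.29 and 5.53 CPM with EC, 1.61, 0.899, 2.74 and 3.26 CPM with IPFc, and 0.406, 1.17, 2.57 and 2.58 CPM with TGF-β. Groups overlapped in each fraction, and the libraries of mouse 1 were the lowest of the vehicle, EC and TGF-β fibroblast groups. The log2 fold changes of Axin2 ran from -0.51 ± 0.40 (epithelial TGF-β) to 0.43 ± 0.34 (epithelial EC) in epithelial libraries and from -0.92 ± 0.38 (TGF-β, adjusted p = 0.113) to 0.19 ± 0.38 (EC) in fibroblast libraries. Over 14 settings for each comparison Axin2 was called once, for TGF-β in fibroblasts (adjusted p = 0.0495). The 95% intervals of the Axin2 changes were wide, from -0.27 to 1.13 for epithelial EC and from -1.35 to 0.33 for epithelial TGF-β. In fibroblast TGF-β libraries the interval was -1.73 to -0.11 before adjustment over all genes.

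Nkd1, a feedback inhibitor that acts on Dishevelled, responded in both fractions. It measured 8.46, 6.97, 8.76 and 7.10 CPM in epithelial vehicle libraries, 4.50, 5.82, 3.78 and 2.51 CPM with EC, 12.0, 18.4, 13.8 and 10.2 CPM with IPFc, and 12.9, 7.62 and 5.32 CPM with TGF-β. In fibroblast libraries it measured 8.58, 9.21 and 10.6 CPM with vehicle and 0.0812, 0.206, 0.552 and 0.0600 CPM with TGF-β. The epithelial EC libraries lay below and the IPFc libraries above those of vehicle, and the fibroblast TGF-β libraries lay far below them. The log2 fold change of Nkd1 was -0.94 ± 0.20 under EC (adjusted p = 0.00545) and 0.75 ± 0.18 under IPFc (adjusted p = 0.0183) in epithelial libraries and -5.42 ± 0.42 under TGF-β in fibroblasts (adjusted p = 5e-08). The epithelial share would bring 18.8% of the fibroblast vehicle level, and the fall was -6.44 with this share subtracted (adjusted p = 0.00437). The epithelial EC call was lost without mouse 3 (adjusted p = 0.0741) and without the pairing (0.0952), and the IPFc call without mouse 1, 2 or 3 (0.0607 to 0.162), without the pairing (0.14) and with the share subtracted (0.17).

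Lef1, a β-catenin partner in transcription, measured 0.614, 0.240, 0.492 and 0.403 CPM in epithelial vehicle and 8.02, 7.53 and 8.82 CPM in epithelial TGF-β libraries. In fibroblasts it measured 8.42, 9.21 and 16.6 CPM with vehicle and 24.9, 22.9, 29.5 and 34.4 CPM with TGF-β. Neither pair of groups overlapped, and the log2 fold change of Lef1 was 4.02 ± 0.56 (adjusted p = 6.6e-06) and 1.54 ± 0.21 (adjusted p = 3.3e-05). Of the epithelial TGF-β level, the fibroblast share would bring 107%, and on subtraction the epithelial rise was 1.27 (adjusted p = 0.76) while the fibroblast rise was 1.24 (adjusted p = 0.0289). Tcf7, which shares this role, was not called against vehicle.

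The treatments were also compared directly. IPFc, which contains TGF-β, differed from TGF-β alone in 22 of 39 members in epithelial libraries (37.2% of all genes) and in 17 of 38 in fibroblast libraries (17.4% of all genes). Lgr6 was lower with IPFc than with TGF-β, with log2 differences of -2.50 ± 0.21 in epithelial and -1.67 ± 0.14 in fibroblast libraries (adjusted p = 8.2e-09 and 1.3e-07), and Nkd1 was higher with IPFc in fibroblasts by 5.76 ± 0.39 (adjusted p = 1.3e-08). EC differed from IPFc in 4 of 39 members in epithelial libraries (4.17% of all genes), namely Lgr5 (1.53 ± 0.24), Nkd1 (-1.69 ± 0.19), Lgr6 (-1.72 ± 0.22) and Fzd5 (-0.73 ± 0.12). In fibroblast libraries EC and IPFc differed in 9 of 38 members (10.4% of all genes), among them Lgr6 (-1.71 ± 0.15, adjusted p = 4.5e-06), none of which was called on subtraction of the epithelial share. The share of all genes called on that subtraction is not given here, so this loss is no result about the members alone.

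The difference in response between the fractions was called for 5 of 39 members under EC (4.59% of all genes), for Sfrp1 alone under IPFc (0.229%) and for 19 under TGF-β (27.5%). All 19 differences under TGF-β were positive, as were 3703 of the 5054 called over all genes. The median difference was 1.32 over the members and 0.21 over all genes. With the shares subtracted, 10 members were called under TGF-β (13.6% of all genes in that setting), among them Wnt7b with the opposite sign (-7.98), and 0 under EC or IPFc. Without the pairing, the counts under EC and IPFc were 0 and 0.

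Other genes of the pathway were counted under TGF-β in 3 lists, against 21% of all genes higher and 20.1% lower in epithelial libraries and 6.39% and 12.8% in fibroblast libraries. Of 31 genes for ligand secretion and intracellular signaling, all tested, 13 rose (41.9%) and 1 fell (3.23%) in epithelial libraries and 5 rose (16.1%) and 1 fell (3.23%) in fibroblast libraries. Their median log2 fold change was 0.17 in both, against 0.03 and -0.02 over all genes. Ctnnb1, which encodes β-catenin, rose by 0.74 ± 0.08 in epithelial (adjusted p = 2.5e-07) and 0.74 ± 0.11 in fibroblast libraries (adjusted p = 1.0e-04), and by 0.74 and 0.65 on subtraction, still called. The share would bring 30.2% of its epithelial TGF-β level. Wls, the carrier that brings Wnt proteins to the cell surface, rose from 119 ± 12.8 to 236 ± 25.1 CPM in epithelial libraries (0.83 ± 0.11) and from 146 ± 24.1 to 213 ± 45.6 CPM in fibroblast libraries (0.56 ± 0.13, adjusted p = 0.00468). The share would bring 26% of the epithelial TGF-β level of Wls, and on subtraction the epithelial rise was 0.90 (adjusted p = 1.6e-04) and the fibroblast rise was lost (0.47, adjusted p = 0.262). Of 25 other surface and extracellular genes, 13 of 21 tested rose (61.9%) and 3 fell (14.3%) in epithelial libraries, with a median of 0.96, and 2 rose (8.7%) and 3 fell (13%) of 23 tested in fibroblast libraries. Ror2, a receptor for Wnt5a, was at 1.64 ± 0.331 CPM with vehicle and 8.13 ± 1.24 CPM with TGF-β in epithelial libraries (2.30 ± 0.27, adjusted p = 6.7e-07) and at 26.3 ± 1.61 and 33.6 ± 4.21 CPM in fibroblast libraries (0.41 ± 0.17, adjusted p = 0.115). The fibroblast share would bring 122% of the epithelial TGF-β level of Ror2, and its call was lost on subtraction (-4.67, adjusted p = 0.263).

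Of 18 other feedback genes and targets, 6 of 16 tested rose (37.5%) and 4 fell (25%) under TGF-β in epithelial libraries, and 4 rose (26.7%) and 4 fell (26.7%) of 15 tested in fibroblast libraries. Ccn4, a matrix protein induced by Wnt1, rose from 3.18 ± 0.602 to 78.0 ± 2.2 CPM in epithelial libraries (4.60 ± 0.19, adjusted p = 2.8e-13) and from 62.1 ± 16.5 to 281 ± 55.9 CPM in fibroblast libraries (2.22 ± 0.15, adjusted p = 1.3e-08). For Ccn4 the fibroblast share would bring 104% of the epithelial TGF-β level, and on subtraction its changes under TGF-β were 5.67 (adjusted p = 0.0104) and 1.89 (adjusted p = 3.5e-04). The epithelial value of 5.67 compares small remainders after subtraction and is no measure of size. Ccn4 also fell in fibroblasts under EC (-0.67 ± 0.14, adjusted p = 0.00974) and rose in epithelial libraries under IPFc (1.07 ± 0.19, adjusted p = 0.00135), where the share would bring 113% of the level, and both calls were lost on subtraction (adjusted p = 0.845 and 0.846). Sox4 rose in both fractions under TGF-β, by 2.23 ± 0.11 and 0.92 ± 0.15. The share would bring 37.6% of its epithelial TGF-β level, and on subtraction the epithelial rise was 2.24 (adjusted p = 1.6e-05) and the fibroblast rise 0.64 (adjusted p = 0.0603). Under EC and IPFc, 0 to 3 genes of each list were called higher and 0 or 1 lower in each fraction. The list counts were not repeated with the share subtracted.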

How the data were processed

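Bulk RNA of 30 libraries was sequenced from directional libraries on an Illumina NovaSeq. The deposited files hold raw read counts per gene for 55487 genes, made by the authors after trimming with Trimmomatic 0.30. The build is GRCm38 in the study's methods and GRCm39 in the labels, and the aligner, counter and strand setting are not given in the sources used here. The submitters' notes also name DESeq2 1.34.0.

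Counts were tested with edgeR 4.0.16 (R 4.3.3) by the quasi-likelihood F test with TMM scaling. There was 1 fit per fraction over the 4 treatments with the mouse as a block, kept to genes whose raw counts averaged 1 or more, and Benjamini-Hochberg adjustment ran over all genes tested. The difference in response between the fractions came from a fit of all 30 libraries with mice nested in fraction. The fraction contrast came from a fit of all 30 libraries with the mouse as a block. The pairing comes from cultures of the same mouse. Deviations from the group mean correlated at 0.252 on average between libraries of the same mouse and at -0.0819 between other libraries in the epithelial fraction. In the fibroblast fraction these values were 0.284 and -0.0928. Centring each group on its mean ties the value between other libraries to that of the same mouse, so it is no separate baseline. Fibroblast p-values measure the spread between cultures of 1 cell line. No 2 libraries of a group agreed within counting error.

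The RNA share of the other fraction was estimated as the median ratio of its marker genes' CPM to that in the library of the same culture. Where that library was not analysed here, the mean of the other mice was used. As an alternative, the reads this share would bring were subtracted from each count (rounded, not below 0) and the edgeR fit was repeated. The repeated fit had less power. Its relative spread between replicates (common biological coefficient of variation) was 0.4781 against 0.1691 in fibroblast and 0.2023 against 0.1266 in epithelial libraries. Members named in the text were those called against vehicle with a log2 fold change over 1 in size and the same direction in each mouse pair, with Axin2 and Wnt5a, and other called members are named beside their counts. The members and lists were chosen with earlier results of these data known. Intervals of fold changes (95%) used the t distribution with residual plus prior degrees of freedom. Alternatives were other size factors and filters, DESeq2 1.42.0, no pairing, robust estimation, the 2 treatments alone, the title suffix R (on 16 titles, meaning not given) as covariate, and leaving out each mouse. Levels per kilobase used merged exon lengths of GENCODE M39. Limits for genes without reads used 3 counts over the group. The fits were tested on simulated data.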

Additional observations from a re-analysis of the deposited data

Results flagged for a closer look

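Of 108 groups of 4 libraries tested by Dixon's criterion, 6 held a library far from the others, where chance flags about 1 in 20. In epithelial IPFc libraries, Rspo3 was at 0 CPM in mouse 3 against 1.28 to 1.32 in the others, and Wnt7b at 147 CPM in mouse 4 against 122 to 126. In fibroblast EC libraries, Dkk2 was at 12.3 CPM in mouse 1 against 3.31 to 4.44, Wnt7a at 24.2 CPM in mouse 1 against 33.7 to 35.6, and Fzd9 at 1.09 CPM in mouse 3 against 0.391 to 0.488. In fibroblast IPFc libraries, Lgr6 was at 31.7 CPM in mouse 3 against 20.4 to 21.9.

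The response differed between the fractions by the interaction test, as log2 fold change in epithelial minus that in fibroblast libraries. Under EC the difference was -1.35 for Wnt7b, -1.38 for Wnt7a, -1.76 for Wnt4, 0.89 for Dkk3 and 1.13 for Sfrp1, and under IPFc it was 1.34 for Sfrp1. Under TGF-β the ligand differences were 1.32 for Wnt9a, 5.79 for Wnt11, 1.88 for Wnt5a, 2.24 for Wnt7b, 3.13 for Wnt7a and 1.38 for Wnt6. For Wnt3a the fitted difference of 5.35 is no measure of size, since fibroblast TGF-β libraries held 0 reads, and its call was kept in 3 of 10 alternatives. The receptor differences were 0.69 for Fzd6, 0.72 for Fzd8, 0.53 for Fzd7, 1.34 for Fzd1 and 1.75 for Fzd2. The others were 3.25 for Dkk2, 2.90 for Dkk3, 2.73 for Sfrp1, 2.62 for Rspo3, 3.55 for Rspo2, 2.47 for Lef1 and 5.41 for Nkd1. These calls were not equally stable. Of 11 alternatives, the TGF-β call was kept in 5 for Fzd7, 6 for Fzd8 and Wnt6 and 7 for Fzd6. It was kept in 11 for Wnt11, Fzd1, Fzd2, Dkk3, Sfrp1, Nkd1 and Rspo2. The EC call of Dkk3 was kept in 5 and the IPFc call of Sfrp1 in 6. The estimated shares of the other fraction's RNA moved with TGF-β in both fractions, and their part in these differences was not tested beyond the subtraction.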

How the results depend on the processing

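Without the replicate block (the pairing by mouse), the members called against vehicle numbered 2 of 5 for epithelial EC, 2 of 6 for epithelial IPFc, 2 of 7 for fibroblast EC and 0 of 1 for fibroblast IPFc, and the fraction differences numbered 0 for EC and 0 for IPFc. With the other fraction's share subtracted, an alternative chosen in part after seeing the data, the counts were 3 for epithelial EC, 1 for epithelial IPFc, 14 for epithelial TGF-β (26.2% of all genes), 14 for epithelial IPFc against TGF-β, 1 for fibroblast EC, 0 for fibroblast IPFc, 9 for fibroblast TGF-β (4.73% of all genes), 9 for fibroblast IPFc against TGF-β, 0 for fibroblast EC against IPFc, and 0, 0 and 10 for the fraction differences under EC, IPFc and TGF-β. Under this subtraction alone values changed sign: Rspo3 (-2.24) and Fzd7 (-0.00) in epithelial TGF-β, Wnt7b (8.24) and Wnt7a (4.36) in fibroblast TGF-β, the EC fraction difference of Dkk3 (-2.87), and the TGF-β fraction differences of Rspo3 (-1.86), Fzd6 (-0.32), Wnt7b (-7.98), Wnt7a (-4.62) and Wnt6 (-2.57). Without the mean filter the counts were 7 for epithelial EC against IPFc, 3 for fibroblast IPFc, and 8 and 3 for the EC and IPFc fraction differences, and with DESeq2 they were 2, 8 and 2 for the last 3. Leaving out 1 mouse at a time gave 3 to 4 (epithelial EC), 3 to 7 (epithelial IPFc), 21 to 23 (epithelial TGF-β), 14 to 20 (epithelial IPFc against TGF-β), 4 to 5 (epithelial EC against IPFc), 2 to 8 (fibroblast EC), 0 to 2 (fibroblast IPFc), 11 to 18 (fibroblast TGF-β), 12 to 18 (fibroblast IPFc against TGF-β), 6 to 12 (fibroblast EC against IPFc), 2 to 5, 0 to 1 and 13 to 18 (fraction differences under EC, IPFc and TGF-β) and 30 to 33 (fractions). The share of all genes called moves with the setting too and is given here for some counts only. A change in these counts is therefore no result about the members alone. The cause was not tested. Of single-gene calls, 83 kept direction and threshold with robust estimation, 82 with DESeq2-type size factors and 34 with the share subtracted.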
